A study of Homo sapiens with 6 samples.

Results

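The genes described here make and handle the intermediates of glycolysis: glucose and lactate transporters, glycolytic enzymes with their isoforms, the kinases and phosphatase that control pyruvate dehydrogenase, and enzymes of glycogen. They were chosen by symbol from a list of 36, of which 35 have a row in the deposited table of 17280 genes; PDK4 was not analysed here. Of these, 33 had a mean of at least 1 TPM (a gene's share of all transcripts, corrected for its length) over the libraries and were tested, and SLC2A3 and HKDC1 lay below that level.

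RNA was sequenced in 6 libraries of CAL-27, an established cell line from a human tongue squamous cell carcinoma, here cultured as floating spheres. The control group, CON, holds 3 libraries whose treatment is given as normal control, and 3 libraries carry the title LF3, a small molecule that keeps beta-catenin from binding TCF4. The series design gives 24 h of LF3 exposure, but the treatment field of the same libraries names elesclomol with copper, a copper ionophore, for the same time, so the group is called LF3 after its titles and the agent cannot be told apart from the labels. All 6 come from 1 line, no label says that replicates were separate cultures, and p-values measure the spread between libraries only, which may be technical.

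Glycolysis splits glucose into pyruvate and yields ATP without oxygen; lactate dehydrogenase then turns pyruvate into lactate, which leaves the cell through monocarboxylate transporters. Several steps are served by isoforms from separate genes that differ in kinetics and in control, and hypoxia-inducible factor (HIF) is known to raise many of them. Tumours of squamous epithelium are known for high glucose uptake, and Wnt signalling has been linked to control of PDK1 and of the lactate transporter gene SLC16A1 in other tumours.

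Libraries of a group had Pearson correlations of 0.996 to 0.997 across genes, which are not independent replicates, and those of different groups 0.863 to 0.867. Since TPM does not carry read totals, the sequencing depth of these libraries is unknown. Of 10 markers of squamous epithelium, 9 passed the filter, 5 of them higher and 2 lower (3 and 5 after median-ratio scaling), and the list summed to 1268 to 1294 TPM in CON and 1762 to 1801 TPM in LF3. EPCAM averaged 337 TPM in each group, and KRT14 was below 1 TPM in both. The leukocyte marker list summed to 328 to 340.4 TPM in CON and 45.4 to 49.4 TPM in LF3, nearly all of it CD68, while PTPRC, which defines leukocytes, was at 0.0133 TPM in CON and 0 in LF3. Summed endothelial markers went from 0.41 to 0.57 TPM in CON to 6.24 to 7.26 TPM in LF3, nearly all of it CDH5, with PECAM1 at 0.25 and 0.23 TPM. Fibroblast markers summed to 14.8 to 15.7 TPM in CON and 6.81 to 7.69 TPM in LF3, with COL3A1 at or near 0. The part of these other markers in the results was not tested.

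The LF3 libraries held less RNA of glucose uptake and of most glycolytic steps before enolase. Pyruvate kinase RNA was higher, and hexokinase, enolase and lactate dehydrogenase shifted between isoforms. HK2, ALDOC and ENO2 fell 9.10-fold to 10.2-fold as ratios of mean TPM, ALDOA fell 5.59-fold, and SLC2A1 and GPI fell 3.83-fold and 3.81-fold. LDHB rose 2.86-fold, GYS1 2.67-fold and PDP1 2.05-fold. In such bulk samples, fewer cells with a given transcript and less RNA per cell cannot be told apart.

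Of the 33 tested genes, 18 were lower and 14 higher in the LF3 libraries at an adjusted p below 0.05 (limma with Benjamini-Hochberg adjustment), and SLC16A3 was not called. In the same fit 85.5% of all 12195 tested genes were called, 32.3% lower and 53.2% higher, so a call by itself is common in this table. The share that fell at least 2-fold was 10 of 33, or 30.3%, where 13.4% of all tested genes did so, and 3 of 33, or 9.09%, rose at least 2-fold, where 23.8% of all genes did. The groups did not overlap in 31 of the 33, against 86.2% of all tested genes. The median log2 fold change (LF3 minus CON, from log2 of TPM + 1) was -0.34 for these genes and 0.24 for all tested genes. Median-ratio scaling, which divides a library by the median of its genes' ratios to their geometric means, brought the latter to -0.0055. Of these genes 8 were then higher and 20 lower, where 42.6% and 42.7% of all tested genes were. Quantile normalization, which gives the libraries one distribution, left 9 higher and 20 lower, where 43.9% and 41.5% of all tested genes were. The genes were set beside all others by counts only, with no test of the list.

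**Figure D1:**
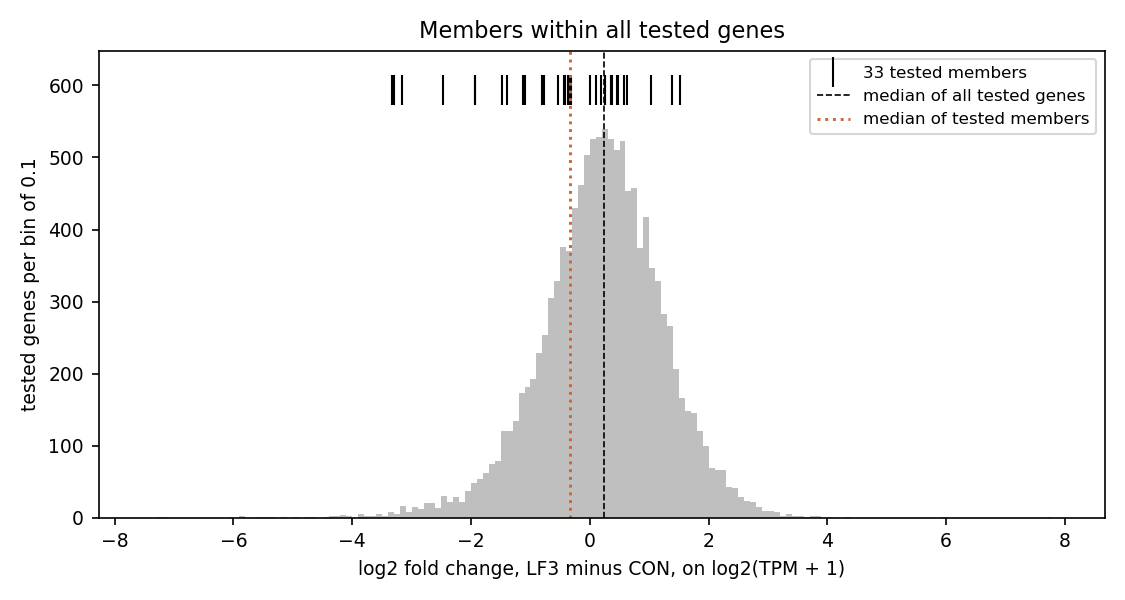
Histogram of log2 fold changes (LF3 minus CON, log2(TPM + 1) scale, x axis) of all 12195 tested genes in bins of 0.1 (y axis, genes per bin), with a tick above it for each of the 33 tested glycolysis genes. The ticks reach from -3.33 for ALDOC to 1.51 for LDHB, and their median, -0.34, lies below that of all genes, 0.24.

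As a share of all transcripts, the 35 genes together made up 5.37%, 5.36% and 5.57% of the TPM in the CON libraries and 2.98%, 2.95% and 3.02% in the LF3 libraries. All LF3 values lay below all CON values, a difference of -2.45 percentage points (exact permutation test, two-sided, p = 0.1, the smallest that 3 against 3 can give). GAPDH and ALDOA were rank 1 and rank 2 among all genes by mean TPM in CON, and rank 3 and rank 55 in LF3. Without GAPDH the sum was 3.58% ± 0.0703 (SD, n = 3) in CON and 2.13% ± 0.0117 in LF3.

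Promoter sequence is shown for the 3 tested genes with the lowest log2 fold changes and for LDHB, the tested gene with the highest, to let the HIF binding core be read in the letters. The sequences are the 250 bases before the first start listed by RefSeq for each gene (GRCh38.p14), written 5′ to 3′ on the gene's strand, with capitals on every ACGTG or GCGTG, the core of the hypoxia response element, in either orientation (CACGT and CACGC when read on the other strand). HK2 is at chr2:74833877-74834126 on the plus strand, ALDOC at chr17:28576896-28577145 on the minus strand, ENO2 at chr12:6914330-6914579 on the plus strand and LDHB at chr12:21657843-21658092 on the minus strand.
HK2: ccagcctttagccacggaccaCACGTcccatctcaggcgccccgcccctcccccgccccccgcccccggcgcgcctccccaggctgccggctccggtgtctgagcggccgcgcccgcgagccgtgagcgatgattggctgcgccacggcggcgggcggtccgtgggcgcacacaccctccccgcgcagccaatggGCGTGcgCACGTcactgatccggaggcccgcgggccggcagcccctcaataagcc
ALDOC: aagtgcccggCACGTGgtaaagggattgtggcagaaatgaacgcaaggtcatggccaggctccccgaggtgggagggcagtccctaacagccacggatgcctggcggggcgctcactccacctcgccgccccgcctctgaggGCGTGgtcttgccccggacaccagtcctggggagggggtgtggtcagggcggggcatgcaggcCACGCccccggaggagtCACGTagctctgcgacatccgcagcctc
ENO2: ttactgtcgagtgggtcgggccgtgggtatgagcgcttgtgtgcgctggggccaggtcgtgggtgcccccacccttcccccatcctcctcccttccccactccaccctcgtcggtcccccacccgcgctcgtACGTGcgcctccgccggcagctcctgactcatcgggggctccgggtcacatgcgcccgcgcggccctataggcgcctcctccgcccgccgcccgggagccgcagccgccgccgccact
LDHB: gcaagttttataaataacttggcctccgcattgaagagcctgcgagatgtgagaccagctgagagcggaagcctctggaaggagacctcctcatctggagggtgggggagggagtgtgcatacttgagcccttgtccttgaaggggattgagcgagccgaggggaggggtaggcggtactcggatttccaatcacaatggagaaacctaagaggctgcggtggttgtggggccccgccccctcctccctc

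ALDOC held 3 ACGTG and 2 GCGTG counted over both strands, among them 1 CACGTG, the E-box, which reads ACGTG on each strand. HK2 held 2 ACGTG and 1 GCGTG, ENO2 held 1 ACGTG, and the 250 bases of LDHB held 0 of either, with a GCGTG in the 50 bases after its start. RefSeq windows of 300 bases (250 before the start and 50 after) were listed for 31 of the 35 genes, in 62 windows, some of which overlap. ACGTG stood in at least 1 window of 18 of 31 genes (58.1%), against 32.6% of 10044 tested genes with a window, and in 35.5% of their windows, against 25.6% of the 14658 windows of tested genes and 21.4% of all 35116 windows. GCGTG was in 43.5% of their windows, 48.5% of those of tested genes and 36.5% of all, and CACGTG in 11.3%, 9.38% and 7.26%. By gene, GCGTG was in 23 of 31 (74.2%), against 58.4% of tested genes with a window. A share by gene depends on the windows per gene, here 62 for 31 genes and 14658 for 10044 tested genes.

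By direction, a split chosen after the values had been seen, ACGTG was in 8 of the 10 genes that fell at least 2-fold, in 14 of 18 that fell at all, and in 3 of 11 with a window that rose. Over all tested genes the corresponding shares were 31.8%, 33.7% and 32.8%. The 2 large falls without it were SLC2A1 and ENO3, each with a GCGTG. Raised genes also held GCGTG, namely HK1, PFKP, PFKFB4, ENO1, PKM, LDHB, PDK2, GYS1 and PYGB. Of the called genes with a window, those without GCGTG were GPI, ALDOA, GAPDH, PGAM1, ENO2 and PDK1 (lower) and PFKM and PYGL (higher). ACGTG or GCGTG stood in 29 of the 31 genes (93.5%), against 70.2% of tested genes with a window. Those with neither were PGAM1, which fell, and PYGL, which rose. Having either core thus did not separate the directions. The TCF/LEF letters CTTTGAT stood in 0 of the 62 windows (1.44% of those of tested genes and 2.62% of all) and CTTTGAA in 1, of PGM1 (2.7% and 4.43%). A match is a run of letters and not a measured binding site, and many known response elements lie outside such windows.

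Glucose enters through SLC2A1 (GLUT1), the main transporter of epithelial cells, whose RNA stood at 664, 661 and 689 TPM in CON and 177, 177 and 172 TPM in LF3. The groups were far apart, with a log2 fold change of -1.93 ± 0.033 (limma SE, adjusted p = 3.56e-12). Here and in what follows, errors of log2 fold changes are limma standard errors, and errors of levels and shares are SD of 3 libraries. SLC2A3 (GLUT3), a high-affinity transporter, was at 1.37, 1.23 and 1.58 TPM in CON and 0.08, 0.03 and 0.1 TPM in LF3. It was too low to be tested at the filter used, and with no filter it was called lower (-1.16 ± 0.066, limma adjusted p = 3.18e-06). SLC2A3 has a near-identical neighbour, SLC2A14, so its reads are uncertain, and SLC2A1 made up 99.77% to 99.98% of the pair's TPM over the 6 libraries.

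Hexokinase, which traps glucose as its 6-phosphate, changed its leading isoform. HK2, the inducible form, was at 570.1, 565 and 565 TPM in CON and 57.2, 57.5 and 54.6 TPM in LF3 (-3.30 ± 0.035, limma adjusted p = 3.08e-13). HK1, the form found in most tissues, was at 148, 147 and 151 TPM in CON and 192, 188 and 196 TPM in LF3. That rise, 0.36 ± 0.034, lost its call after median-ratio scaling (0.092, adjusted p = 0.0624). HK2 thus made up 79.3%, 79.3% and 78.9% of hexokinase TPM in CON and 22.9%, 23.3% and 21.7% in LF3, a ratio within a library that no scaling by 1 factor per library can change. HKDC1, a low-activity relative, was at 0.59, 0.37 and 0.52 TPM in CON and 1.1, 1.42 and 1.35 TPM in LF3 and was not tested at the filter used. With no filter HKDC1 was called higher (0.62 ± 0.082, adjusted p = 0.000354). The 3 genes summed to 716 ± 3.12 TPM in CON and 249.7 ± 2.11 TPM in LF3, 2.87-fold lower.

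**Figure D2:**
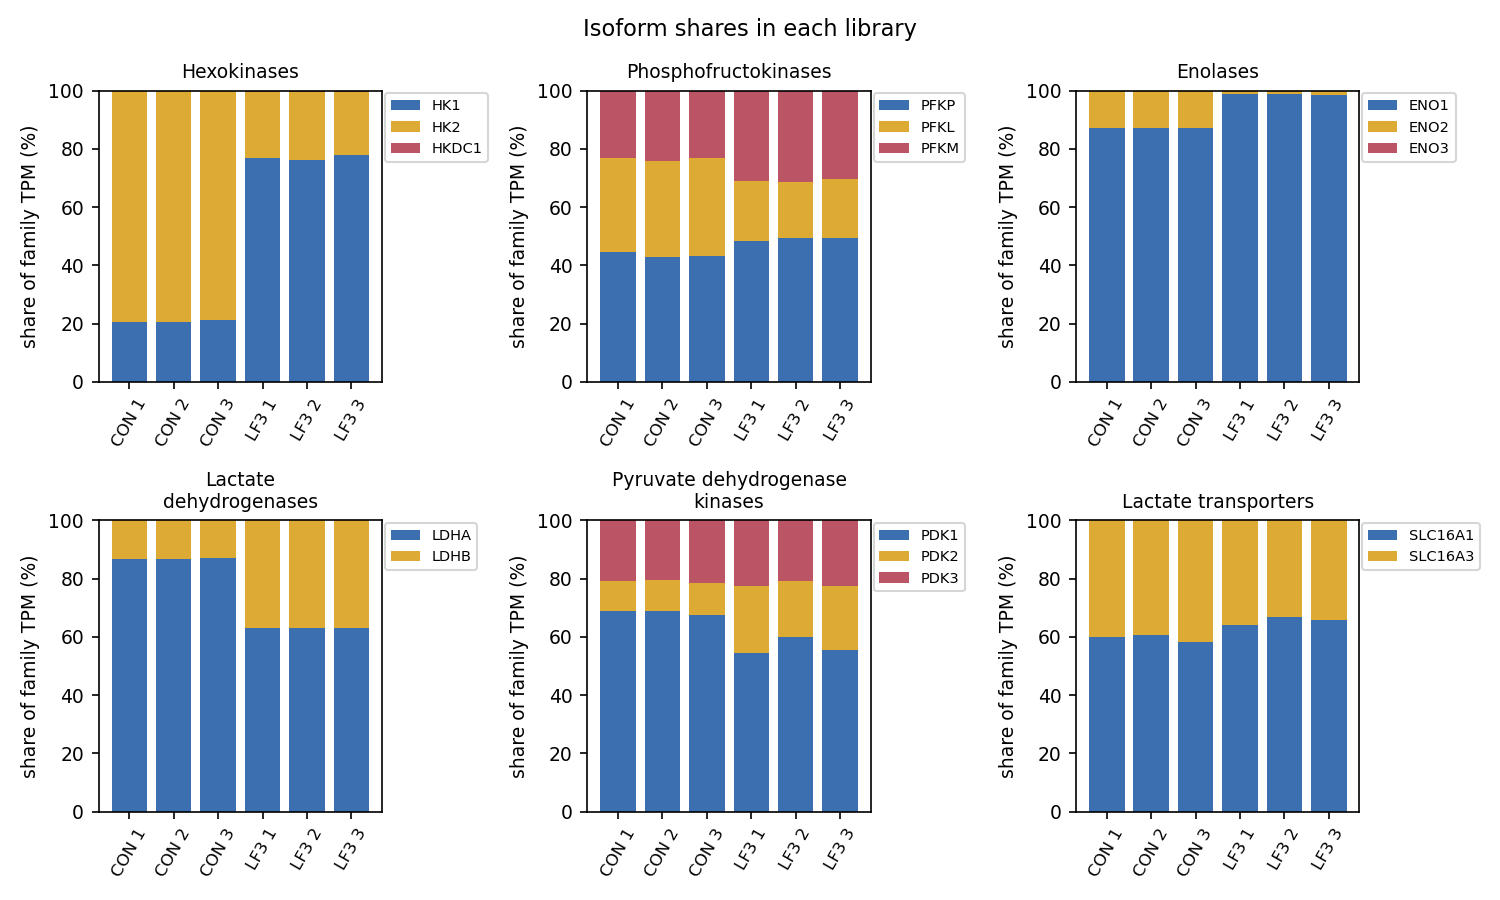
Stacked bars of each isoform's share of its family's TPM (y axis, percent) in the 3 CON and 3 LF3 libraries (x axis) for 6 families. HK2 goes from 79.1% to 22.6% of hexokinase, ENO2 from 12.8% to 1.33% of enolase and LDHA from 86.7% to 63.0% of lactate dehydrogenase, while the libraries of a group are alike.

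GPI, which turns glucose 6-phosphate into fructose 6-phosphate, was at 1353, 1349 and 1424 TPM in CON and 369, 359 and 355 TPM in LF3 (-1.93 ± 0.033). Phosphofructokinase, the committed step, moved less and in both directions. PFKL, the liver form, fell from 77.0, 74.8 and 83.5 TPM to 56.2, 52.1 and 53.0 TPM (-0.54 ± 0.053). PFKM, the muscle form, rose from 55.9, 55.6 and 57.0 TPM to 86.5, 84.9 and 80.2 TPM (0.57 ± 0.044, and 0.30 after median-ratio scaling). PFKP, the platelet form and the most abundant, was at 106, 98.0 and 107 TPM in CON and 134, 134 and 130.35 TPM in LF3. Its rise (0.35 ± 0.043) lost its call after median-ratio scaling (0.083, adjusted p = 0.115) and quantile normalization (0.036, adjusted p = 0.452). PFKP held 43.5% ± 0.849 of the family's TPM in CON and 49.1% ± 0.554 in LF3.

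The bifunctional PFKFB enzymes set fructose 2,6-bisphosphate, the strongest activator of phosphofructokinase. PFKFB3, whose kinase activity outweighs its phosphatase, was at 78.3, 80.3 and 80.8 TPM in CON and 30.03, 26.3 and 27.7 TPM in LF3 (-1.48 ± 0.054, limma adjusted p = 6.58e-10). PFKFB2, the heart form, overlapped between groups at 17.9, 20.5 and 17.9 TPM in CON and 21.1, 22.6 and 20.5 TPM in LF3. Its call (0.18 ± 0.070, adjusted p = 0.0295) was lost when CON replicate 1 or 3 was left out (adjusted p = 0.102 and 0.0948), or LF3 replicate 1 or 2 (0.0508 and 0.114). Its sign turned after median-ratio scaling (-0.078) and quantile normalization (-0.12). PFKFB4, the testis form, averaged 2.77 ± 0.210 TPM in CON, against 3.52 ± 0.240 TPM in LF3, and its call (0.26 ± 0.091, adjusted p = 0.0196) was lost when CON replicate 2 or 3 was left out (adjusted p = 0.0559 and 0.0583), or LF3 replicate 2 (0.0647), and after median-ratio scaling (0.054, adjusted p = 0.593).

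Aldolase, which cleaves fructose 1,6-bisphosphate, had the lowest LF3 to CON ratio of all steps summed, 0.174. ALDOA, the main form, was at 13985, 14163 and 14889 TPM in CON and 2639, 2511 and 2557 TPM in LF3 (-2.48 ± 0.031). ALDOC, the form typical of brain, was at 1066, 1029 and 1068 TPM in CON and 103, 100.5 and 108 TPM in LF3 (-3.33 ± 0.037, limma adjusted p = 3.86e-13). The pair summed to 5.76-fold less TPM in LF3, and the share of ALDOC went from 6.85% ± 0.204 to 3.89% ± 0.163. TPI1, which interconverts the triose phosphates made by aldolase, moved little beside them, at 2361, 2221 and 2398 TPM in CON and 1891, 1850.13 and 1901 TPM in LF3. Its log2 fold change was -0.31 ± 0.033 as deposited, -0.58 after median-ratio scaling and -0.079 after quantile normalization, a called fall in each.

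In the lower part, GAPDH, which makes the first NADH of the pathway, was at 18288, 18314 and 19096 TPM in CON and 8433, 8304 and 8745 TPM in LF3 (-1.13 ± 0.029). This gene is often used as a reference of constant level, and here its groups differed 2.19-fold. PGK1, the first ATP-forming step, fell from 889.6, 919 and 895 TPM to 417, 419 and 431 TPM (-1.09 ± 0.030). PGAM1, which moves the phosphate of 3-phosphoglycerate, fell from 1589.7 ± 32.5 to 1259.7 ± 26.2 TPM (-0.34 ± 0.029, and -0.12 after quantile normalization). GENCODE 29 names 62 pseudogenes of GAPDH and 13 of PGAM1. The sources used here do not say how reads shared with them were counted, so both levels are uncertain. The same limit applies to LDHA (6 named pseudogenes), PKM (5), TPI1 and ENO1 (4 each), and LDHB and SLC2A3 (3 each). It also applies to ALDOA (2) and to HK2, PGK1 and SLC16A1 (1 each).

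Enolase, which forms phosphoenolpyruvate, shifted between isoforms. ENO1, the common form, was at 4375, 4306 and 4477 TPM in CON and 5209, 5223 and 5341 TPM in LF3. Its log2 fold change was 0.26 ± 0.026 as deposited, -0.012 after median-ratio scaling (adjusted p = 0.802) and 0.73 after quantile normalization. Its rise was thus not called under every scaling. ENO2, the form typical of neurons, was at 639, 640.4 and 650.3 TPM in CON and 70.07, 68.2 and 73.7 TPM in LF3 (-3.17 ± 0.038, limma adjusted p = 4.74e-13). ENO3, the muscle form, fell from 5.98, 4.42 and 7.19 TPM to 1.86, 1.15 and 1.77 TPM (-1.40 ± 0.16). ENO2 held 12.7%, 12.9% and 12.7% of enolase TPM in CON and 1.33%, 1.29% and 1.36% in LF3. ENO1 outweighs the others, and enolase summed to 5035 ± 92.8 TPM in CON against 5330 ± 75.5 TPM in LF3, a ratio of 1.06 (0.876 after median-ratio scaling).

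PKM, the pyruvate kinase gene whose M1 and M2 splice forms a gene total cannot separate, rose from 2685, 2552 and 2717 TPM to 3671, 3625 and 3674 TPM (0.46 ± 0.030, 0.19 after median-ratio scaling and 0.86 after quantile normalization). ENO1 and PKM were rank 11 and rank 30 among all genes by mean TPM in LF3, after rank 40 and rank 65 in CON. The steps from glucose to lactate did not all move one way. After median-ratio scaling the LF3 to CON ratios of phosphofructokinase, enolase, lactate dehydrogenase and lactate transport were 0.938, 0.876, 0.851 and 0.974, where they were 1.13, 1.06, 1.03 and 1.18 as deposited, while pyruvate kinase stayed above 1 at 1.14.

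**Figure D3:**
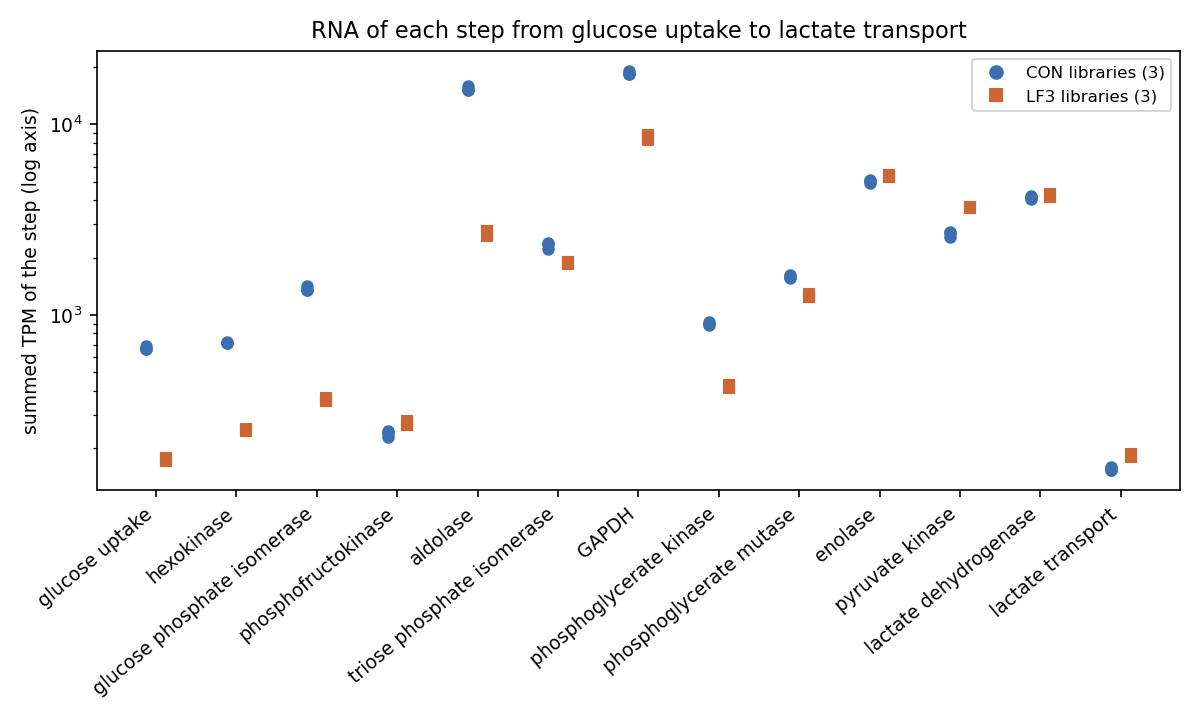
Summed TPM (y axis, log scale) of the genes of each step from glucose uptake to lactate transport (x axis), with 1 point for each of 3 CON and 3 LF3 libraries. The LF3 points lie below the CON points for glucose uptake, hexokinase, GPI, aldolase, triose phosphate isomerase, GAPDH, phosphoglycerate kinase and mutase, and level with or above them for phosphofructokinase, enolase, pyruvate kinase, lactate dehydrogenase and lactate transport as deposited.

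Lactate dehydrogenase, which joins pyruvate and lactate, changed its makeup more than its sum. LDHA, whose subunit favours lactate formation, was at 3599, 3630.4 and 3508 TPM in CON and 2626, 2703 and 2700.3 TPM in LF3 (-0.42 ± 0.027; -0.69 and -0.066 after median-ratio scaling and quantile normalization, each called). LDHB, whose subunit favours the oxidation of lactate, was at 554, 564 and 529.8 TPM in CON and 1549, 1588 and 1574 TPM in LF3 (1.51 ± 0.032, limma adjusted p = 1.40e-11). The LDHA share of the pair was 86.7%, 86.6% and 86.9% in CON and 62.9%, 63.0% and 63.2% in LF3. The pair summed to 4128.5 ± 80.9 TPM in CON against 4246 ± 62.8 TPM in LF3, a ratio of 1.03 with overlapping libraries (exact permutation test, two-sided, p = 0.2), and 0.851 after median-ratio scaling.

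SLC16A1 (MCT1), a transporter that carries lactate in either direction, was at 92.3, 96.4 and 89.5 TPM in CON and 119, 123 and 118 TPM in LF3. Its rise (0.37 ± 0.042) shrank to 0.099 after median-ratio scaling and lost its call after quantile normalization (0.058, adjusted p = 0.185). SLC16A3 (MCT4), the exporter of highly glycolytic cells, overlapped between groups at 62.0, 62.2 and 64.2 TPM in CON and 66.7, 61.1 and 61.3 TPM in LF3. Its log2 fold change was 0.00 ± 0.047 as deposited (adjusted p = 0.946), and it was called lower after both scalings (-0.27 and -0.35). Its share of the pair, which 1 factor per library cannot alter, was 40.4% ± 1.29 in CON and 34.4% ± 1.35 in LF3.

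**Figure D4:**
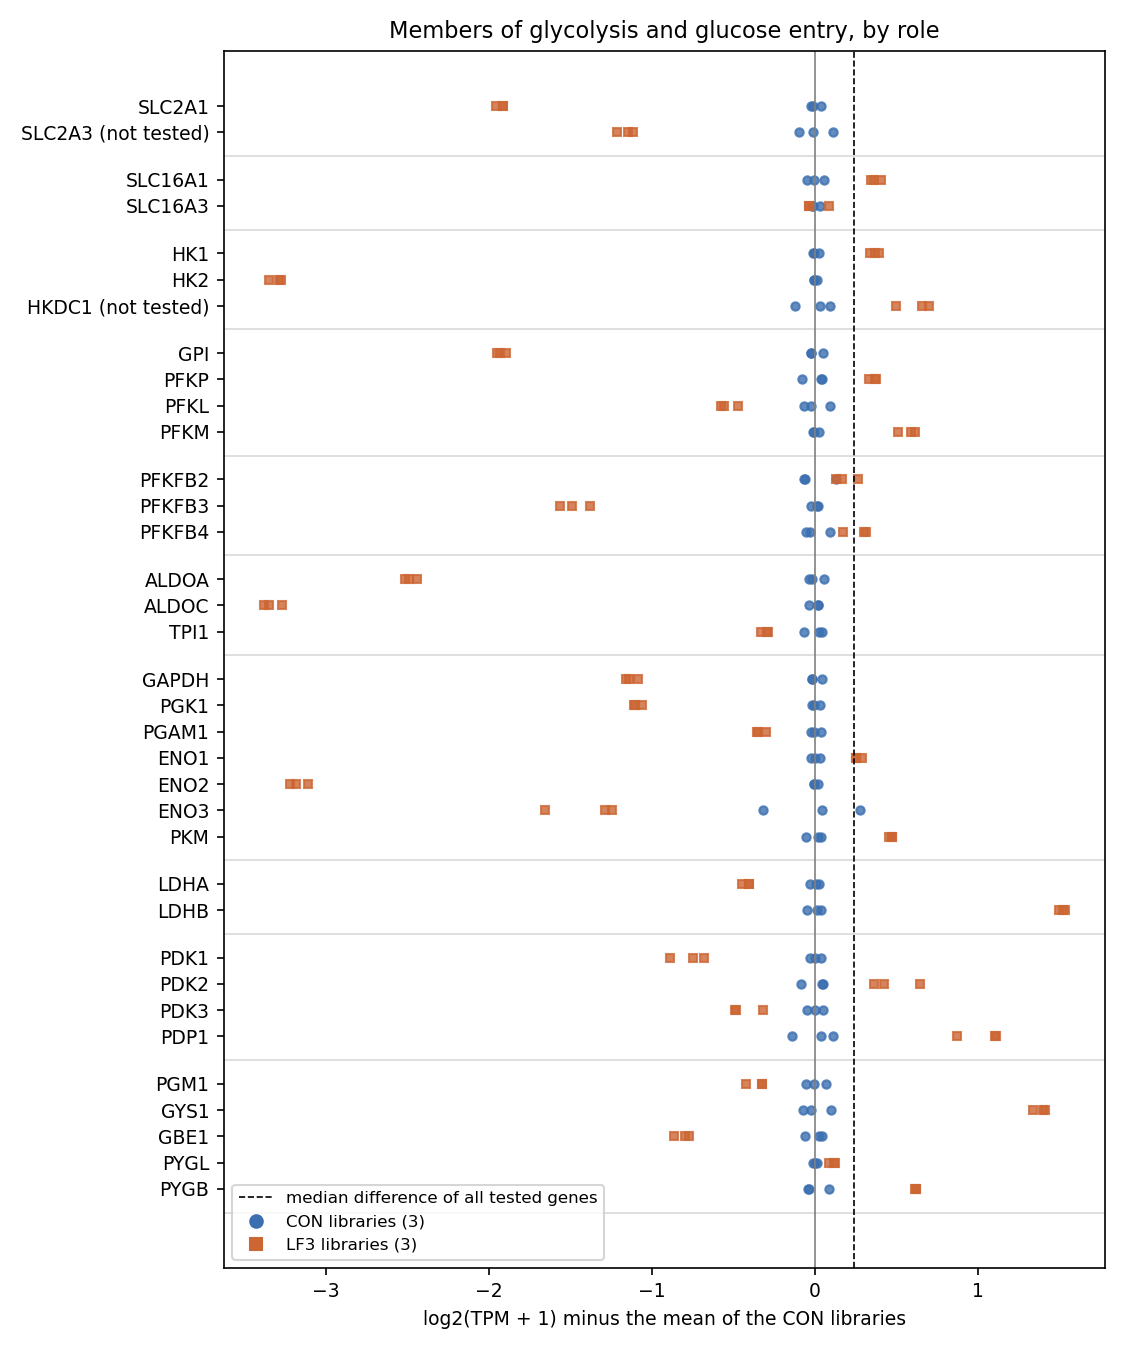
Each library's log2(TPM + 1) minus the mean of the CON libraries (x axis) for the 35 genes, in rows grouped by role, with circles for the 3 CON and squares for the 3 LF3 libraries and a dashed line at 0.24, the median difference of all tested genes. The squares of HK2, ALDOC and ENO2 lie near -3, those of LDHB, GYS1 and PDP1 above the dashed line, and those of SLC16A3 among the circles.

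Pyruvate dehydrogenase kinases switch off the enzyme that passes pyruvate to the mitochondrion, and PDP1 is a phosphatase that switches it on. PDK1, which HIF is known to induce, was at 64.6, 67.9 and 66.0 TPM in CON and 39.0, 40.9 and 35.2 TPM in LF3 (-0.77 ± 0.058, limma adjusted p = 2.45e-07). PDK3 fell from 19.6, 20.4 and 21.1 TPM to 16.2, 14.2 and 14.2 TPM (-0.43 ± 0.067). PDK2 rose from 9.46, 10.4 and 10.5 TPM to 16.3, 13.2 and 13.9 TPM (0.47 ± 0.084), with its call lost after quantile normalization (0.18, adjusted p = 0.0526). The 3 kinase genes summed to 96.7 ± 2.63 TPM in CON against 67.8 ± 4.13 TPM in LF3. The PDK1 share went from 68.4% ± 0.720 to 56.7% ± 2.79. PDP1 was at 73.5, 77.4 and 65.1 TPM in CON and 156, 155 and 132 TPM in LF3 (1.03 ± 0.076, 0.75 after median-ratio scaling).

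Glycogen enzymes were divided as well. GYS1, the synthase that extends glycogen, was at 21.8, 22.6 and 24.6 TPM in CON and 59.6, 62.6 and 62.2 TPM in LF3 (1.38 ± 0.055). GBE1, which adds the branches, fell from 62.2, 63.1 and 58.7 TPM to 33.1, 34.9 and 35.5 TPM (-0.81 ± 0.050). PGM1, which joins glucose 1-phosphate and glucose 6-phosphate, fell from 98.8 ± 4.23 to 76.9 ± 3.01 TPM (-0.36 ± 0.047). Of the phosphorylases that release glucose from glycogen, the brain form PYGB rose from 36.3, 36.2 and 39.7 TPM to 57.6, 57.9 and 57.9 TPM (0.62 ± 0.049, and 0.35 after median-ratio scaling). The liver form PYGL was at 112, 111 and 113 TPM in CON and 122, 122 and 119 TPM in LF3. That difference of 0.11 ± 0.035 was called as deposited (adjusted p = 0.0143), not called without LF3 replicate 1 (adjusted p = 0.0536), and called in the other direction after median-ratio scaling (-0.16) and quantile normalization (-0.20). PYGL held 75.0% ± 0.833 of the pair's TPM in CON and 67.7% ± 0.32 in LF3.

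Genes next to these in sugar metabolism were read from 8 lists of 117 genes, 82 of them tested. Of these 49 were called higher and 24 lower (40 and 31 after median-ratio scaling), where 53.2% and 32.3% of all tested genes were (42.6% and 42.7% after that scaling). Their median log2 fold change was 0.41, against 0.24 for all tested genes. Values with an error and no unit are again log2 fold changes, called unless stated otherwise. In the pentose phosphate pathway, which makes NADPH and ribose from glucose 6-phosphate, 8 of 11 rose and 1 fell (7 and 3 after median-ratio scaling). TALDO1, a transaldolase, had 1.78 ± 0.050 and RPE, an epimerase, 1.56 ± 0.069, while TKT, a transketolase, had -0.29 ± 0.044. The list's summed TPM was 815 to 859 in CON and 1429 to 1498 in LF3.

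On the way into the mitochondrion, 6 of 10 tested genes rose and 3 fell, where 53.2% and 32.3% of all tested genes did. After median-ratio scaling 5 rose and 5 fell, where 42.6% and 42.7% of all did. The pyruvate carrier genes MPC1 and MPC2 had 0.46 ± 0.066 and 0.01 ± 0.040, the latter not called (adjusted p = 0.774) and at -0.26 after median-ratio scaling. Of the subunits of pyruvate dehydrogenase, DLAT rose from 7.08 ± 0.125 to 31.4 ± 0.779 TPM, and DLD had a log2 fold change of 1.28 ± 0.049, PDHA1 one of 0.97 ± 0.047 and PDHX one of -0.17 ± 0.039. The phosphatase gene PDP2 had -0.94 ± 0.057, opposite in sign to PDP1, and pyruvate carboxylase, PC, -0.34 ± 0.053.

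Among other isoforms and lactate handling, 4 of 6 tested genes rose and 2 fell, where 53.2% and 32.3% of all tested genes did. After median-ratio scaling 2 rose and 2 fell, where 42.6% and 42.7% of all did. ADPGK, an ADP-dependent glucokinase, rose from 40.4 ± 1.26 to 81.8 ± 3.37 TPM. BPGM and the transporter partner EMB had 0.25 ± 0.068 and 0.26 ± 0.083 as deposited and -0.0093 and 0.0054 after median-ratio scaling. BSG (basigin), the chaperone that lactate transporters need to reach the membrane, fell from 1065 ± 31.1 to 772 ± 11.8 TPM. Of other sugar transporters, 3 of 6 tested rose and 1 fell; SLC2A6 went from 4.08 ± 0.119 to 29.7 ± 1.43 TPM and SLC2A8 from 6.49 ± 1.22 to 10.5 ± 0.651 TPM.

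Of other glycogen genes, 10 of 19 tested rose and 6 fell, where 53.2% and 32.3% of all tested genes did. After median-ratio scaling 7 rose and 9 fell, where 42.6% and 42.7% of all did. The phosphorylase kinase subunits PHKG2 and PHKB had 1.25 ± 0.093 and 1.17 ± 0.078. The glycogen-targeting phosphatase subunits PPP1R3C and PPP1R3B had -1.99 ± 0.092 and -1.65 ± 0.074, and the lysosomal glucosidase GAA -1.13 ± 0.056. In gluconeogenesis 1 of 2 tested genes rose, G6PC3, with 0.80 ± 0.053.

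Branches that leave glycolysis had 7 of 12 tested genes higher and 5 lower, the same counts after median-ratio scaling. All tested genes were 53.2% higher and 32.3% lower, and 42.6% and 42.7% after that scaling. The hexosamine branch supplies sugars for glycosylation; GFPT1, its rate-limiting enzyme, fell from 156 ± 9.31 to 42.5 ± 2.81 TPM, PGM3 had -1.13 ± 0.052 and UAP1 -0.76 ± 0.041. PSAT1, of serine synthesis, had 1.88 ± 0.050, and SORD and AKR1B1, of the polyol route, 1.79 ± 0.049 and 1.47 ± 0.033.

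Regulators known to act on glycolytic genes were tested in 16 of 17 cases, with 10 higher and 6 lower (9 and 6 after median-ratio scaling). The shares over all tested genes were 53.2% and 32.3% (42.6% and 42.7% after that scaling). HIF1A, the oxygen-regulated subunit of HIF, whose activity is set mainly by protein stability, rose from 87.2 ± 2.76 to 494 ± 41.5 TPM (2.49 ± 0.057). Its partner ARNT fell from 39.3 ± 0.937 to 18.8 ± 1.27 TPM (-1.02 ± 0.059), and EGLN3, a prolyl hydroxylase that HIF itself induces, from 247 ± 3.44 to 23.9 ± 1.22 TPM (-3.31 ± 0.046). MYC, a transcription factor of growth, had 1.21 ± 0.054. TXNIP, an arrestin-like protein that lowers glucose uptake and follows intracellular sugar phosphates, fell from 1363 ± 42.5 to 158 ± 4.94 TPM (-3.10 ± 0.036). HIF protein and its activity were not measured.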

How the data were processed

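Trizol was used to extract RNA, and a BGISEQ500 read 50 bases from one end of each fragment, per the labels' protocols. HISAT, Bowtie2 and a mouse build, GRCm38.p6, appear in the submitters' processing notes, while the table's identifiers are human (35 of 35 members matched RefSeq by identifier and symbol). The sources used here state neither the alignment target nor the treatment of shared reads, and no gene coordinates are taken from them. The deposited values are TPM per gene, scaled by the authors to a sum of 1000000 per library, per the file's values. From them, log2(TPM + 1) was computed and genes averaging 1 TPM or more were compared with limma 3.58.1 (R 4.3.3), with a mean-variance trend, two-sided, Benjamini-Hochberg adjusted over 12195 genes, with a threshold of 0.05. This scale understates changes of low genes. Columns were mapped to libraries by title, and 0 columns were left unmapped. Errors are SD of 3 libraries or limma standard errors. Shares and sums used TPM, with exact permutation tests over libraries. The fit was also run on simulated data in which most genes were unchanged, unlike here, so that run does not test the scaling of libraries. The members and lists were chosen with earlier results of these data known. Named are all members, and of related lists up to 3 called genes per direction with the largest change at a mean of at least 5 TPM, plus HIF1A, MYC, TXNIP, MPC1, MPC2 and PDHA1; some genes this rule names are not reported here. Other settings tried were a pseudocount of 0.1 or 0.5, a filter at 5 TPM or none, 2 scalings, limma without trend or with robust variances, a replicate block and leaving out each library. Promoter windows are RefSeq's (GRCh38.p14). Protein sequences were not used here. Figures were drawn with matplotlib 3.10.9.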

Additional observations from a re-analysis of the deposited data

How the results depend on the processing

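The number of members called higher, 14, became 8 after median-ratio scaling and 9 after quantile normalization, and their median log2 fold change, -0.34, became -0.609 and -0.204; it lay between -0.353 and -0.319 when a library was left out. Signs turned for SLC16A3 (-0.27 and -0.35 after the 2 scalings), PFKFB2 (-0.078 and -0.12), PYGL (-0.16 and -0.2) and ENO1 (-0.012 after median-ratio scaling). Among them only PYGL was called in both directions. The members' difference in summed share was -1.45 percentage points without GAPDH. The count of members called lower, 18, stayed between 17 and 20 under all alternatives run. Whether replicate numbers pair the libraries is not known. Same-numbered deviations correlated at 0.0476, 0.106 and 0.16, and different-numbered ones at -0.17 to 0.0737. The values 0.106 and 0.16 thus lay above every different-numbered value. With the replicate block 14 members were called higher and 18 lower, with 6536 and 3986 genes in all, and no member's call changed. The depth of the libraries is unknown, so the counting error of low members such as SLC2A3, HKDC1 and PFKFB4 cannot be given.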
